A study of Mus musculus with 8 samples.

Results

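The TNF receptor superfamily genes described here are 10 genes, Tnfrsf1a, Tnfrsf1b, Tnfrsf9, Tnfrsf13b, Tnfrsf14, Tnfrsf25, Cd27, Cd40, Fas and Ltbr. They were followed in H3K27me3 ChIP-seq and in RNA-seq of naive CD4+ T cells. The group was chosen by a measured value: the H3K27me3 window of Tnfrsf1a was higher in double KO cells than in WT. That difference selected the group and is given only as a description. All 10 have a promoter window, among 18603 windows in the ChIP files, and all 10 have an RNA value, among 22410 genes in the RNA files.

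The receptors of this family sit in the cell membrane and bind trimeric ligands of the TNF superfamily. Some, such as the products of Tnfrsf1a, Tnfrsf25 and Fas, carry an intracellular death domain that can recruit caspase-activating adaptors, and others bind TRAF proteins and signal to NF-kB. In T cells, Cd27, Tnfrsf9, Tnfrsf14 and Tnfrsf25 act as costimulatory or modulating receptors, Fas takes part in the removal of activated cells, and Cd40 is best known as the receptor of B cells and antigen-presenting cells for the T cell ligand CD40L. H3K27me3 is a histone mark set by Polycomb repressive complex PRC2, whose alternative catalytic subunits are Ezh1 and Ezh2, and promoters that carry it are mostly silent.

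Cells came from mice of 129SV/B6 strain in every group, and the labelled tissue is CD4 T cells purified from lymph nodes. The Ezh1 KO is Ezh1 -/-, the Ezh2 KO is Ezh2 fl/fl with CD4-cre, the double KO carries both, and WT carries neither. CD4-cre is driven by Cd4 regulatory sequence and removes floxed DNA in the T cell lineage, so cells of other lineages in a preparation keep Ezh2. Each genotype has 1 H3K27me3 library and 1 RNA library, 8 libraries in all. With 1 library per genotype and assay there is no SD, no p and no test between genotypes, and "higher" and "lower" compare single libraries. The age of the mice and the number of animals per library are not given in the sources used here.

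The H3K27me3 value of a gene is the area of its window, which is the coverage per M reads summed over the 25 bp bins of 6 kb around its start site. Depth was 78.2 to 88.2 M reads for the ChIP libraries and 36.1 to 94.1 M reads for the RNA libraries. Folds of window areas come with a 95% exact (Clopper-Pearson) interval, which covers counting error only and not the spread between animals or libraries. Reads copied by PCR and not tagged by molecule are not independent, so it can be too narrow for counting error too. The middle 90% of all windows had folds over WT of 0.789 to 1.43 in Ezh1 KO cells and 0.761 to 1.33 in Ezh2 KO cells. In double KO cells the range was 0.766 to 1.37. A fold within these ranges can have an interval clear of 1. The RNA value takes the highest coverage per M reads in each exon and averages it over the gene, and is not divided by length. RNA heights are thus compared between libraries. Across genes they serve only to sort genes by a common height and to sum markers, where genes with tall peaks weigh most. The deleted genes were read in each RNA library. Ezh1 had a mean exon peak of 0.196 in Ezh1 KO cells, 1.12 in Ezh2 KO cells, 0.194 in double KO cells and 1.05 in WT, so it was low in both libraries labelled Ezh1 -/-. Ezh2 had 0.913 in Ezh1 KO cells, 1.08 in Ezh2 KO cells, 1.17 in double KO cells and 0.925 in WT. A mean over all exons of a gene cannot check the loss of a floxed part of it, and the labels do not say which exons are floxed. The window of Cd4, whose regulatory sequence the cre transgene carries, had areas of 24.1 in Ezh1 KO cells, 193.5 in Ezh2 KO cells, 212.1 in double KO cells and 19.9 in WT, high in both libraries labelled CD4-cre. All 10 CD4 T cell marker windows, Cd4 among them, were higher than WT in each mutant. Their median log2 ratio to WT was 0.11 in Ezh1 KO cells, 0.40 in Ezh2 KO cells and 0.55 in double KO cells. All windows had 0.09, -0.01 and 0.05 in that order, and 64.2%, 48.5% and 59.6% of them were higher than WT. The 10 CD4 T cell markers were detected in every RNA library, with summed heights of 219.2, 220.2 and 219.3 in Ezh1 KO, Ezh2 KO and double KO cells, against 250.8 in WT. The tallest, Cd3g, had 94.0, 98.4 and 89.9 of these in the mutants and 108.5 in WT.

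The promoters of 4 members are printed, since the results turn on the windows of these genes. Tnfrsf1a is the gene on which the group was chosen, and Tnfrsf14 had the lowest WT area. Ltbr and Tnfrsf25 were added after their values were seen, since their windows stood highest over WT in Ezh1 KO cells. The sequences are RefSeq's, of build GRCm38.p6, and run 5′ to 3′ on the gene's strand from 250 bases before to 50 bases after a start site, with each CpG in capitals. The same 300 bases were found in mm9, the build of the windows, and their distances to the windows are from that match.
Tnfrsf1a, chr6:125349473-125349772, plus strand: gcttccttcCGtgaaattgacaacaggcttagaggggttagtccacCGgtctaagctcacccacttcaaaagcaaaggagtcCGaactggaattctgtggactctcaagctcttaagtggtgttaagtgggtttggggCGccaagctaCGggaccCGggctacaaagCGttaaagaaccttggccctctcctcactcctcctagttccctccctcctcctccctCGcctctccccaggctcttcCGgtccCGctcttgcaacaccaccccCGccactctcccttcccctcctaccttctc
Ltbr, chr6:125313836-125314135, minus strand: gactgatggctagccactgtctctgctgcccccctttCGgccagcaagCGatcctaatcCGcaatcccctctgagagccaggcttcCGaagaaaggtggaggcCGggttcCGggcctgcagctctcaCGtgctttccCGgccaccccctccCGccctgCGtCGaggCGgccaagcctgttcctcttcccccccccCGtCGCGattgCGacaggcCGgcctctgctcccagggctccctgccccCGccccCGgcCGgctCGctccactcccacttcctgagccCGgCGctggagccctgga
Tnfrsf25, chr4:152115684-152115983, plus strand: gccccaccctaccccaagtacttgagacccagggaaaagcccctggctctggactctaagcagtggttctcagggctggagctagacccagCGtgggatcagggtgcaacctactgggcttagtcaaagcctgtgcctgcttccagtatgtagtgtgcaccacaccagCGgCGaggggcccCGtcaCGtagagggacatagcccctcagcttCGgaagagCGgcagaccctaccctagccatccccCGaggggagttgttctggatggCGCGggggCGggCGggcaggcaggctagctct
Tnfrsf14, chr4:154928028-154928327, minus strand: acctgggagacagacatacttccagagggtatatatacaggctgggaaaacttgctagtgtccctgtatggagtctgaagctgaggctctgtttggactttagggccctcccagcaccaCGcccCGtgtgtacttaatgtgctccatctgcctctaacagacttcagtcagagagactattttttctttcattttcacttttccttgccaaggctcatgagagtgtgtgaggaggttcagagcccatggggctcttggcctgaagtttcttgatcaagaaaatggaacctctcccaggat
Of these, the Ltbr promoter holds 23 CpGs, the Tnfrsf25 promoter 12, the Tnfrsf1a promoter 11 and the Tnfrsf14 promoter 2, where the median over 32851 RefSeq promoters is 7. RefSeq entries were matched for 9 of the 10 members, with 11 entries in all. The other entries hold 15 CpGs for the other Tnfrsf25 start, 14 for Fas, 13 for Tnfrsf1b, 8 for Tnfrsf13b, 7 for Cd27, and 4 and 6 for the starts of Tnfrsf9. Over the whole 6 kb, the CpG count ran from 67 at Cd27 to 145 at Tnfrsf25, with 117 as the median of all windows, and Ltbr held 134, Tnfrsf1a 105, Cd40 91 and Tnfrsf14 71. The members with the most mark in WT include windows on either side of the median CpG count.

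In WT cells the 10 windows ran from near the background level to just over the line that separates marked windows. The background, the median of 7077 windows of genes in the top tertile of WT RNA, was 10.1 in WT, and a window is called marked at 4 times that level, which 11.99% of all windows reached in WT. Cd40 was the only member over that line of 40.6 in WT, with an area of 41.0. Ltbr had 28.8, Tnfrsf1a 22.5, Tnfrsf25 18.0, Tnfrsf13b 14.6 and Tnfrsf1b 13.9. The other 4 members, Tnfrsf9, Cd27, Fas and Tnfrsf14, lay between 7.81 and 10.7, at or below 1.05 times the background.

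Between the mutants and WT, 8 members were higher and 2 lower in Ezh1 KO cells, 7 higher and 3 lower in Ezh2 KO cells, and 6 higher and 4 lower in double KO cells. Of all windows, 64.2% were higher in Ezh1 KO cells than in WT, 48.5% in Ezh2 KO cells and 59.6% in double KO cells. The median log2 ratio of the members, with 1 added to each area, was 0.31 in Ezh1 KO cells, where all windows had 0.09. It was 0.10 in Ezh2 KO cells, where all windows had -0.01, and 0.20 in double KO cells, where all windows had 0.05. No member differed by 2-fold in Ezh1 KO cells or in Ezh2 KO cells, where 0.0334% of all windows did so in each. In the double KO 1 member, Tnfrsf1a, passed 2-fold, beside 0.172% of all windows, and this is the value that chose the group. At 1.5-fold the Ezh1 KO had 3 members, Tnfrsf1a, Tnfrsf25 and Ltbr, beside 2.19% of all windows. The Ezh2 KO had 1, Tnfrsf1a, beside 1.4% of all windows. The double KO had 4, Tnfrsf1a, Tnfrsf25, Cd27 and Fas, beside 2.62% of all windows. These members were higher than WT in each case. The 3 comparisons share the WT library. Tnfrsf1a, whose double KO and WT values chose the group, is part of each 1.5-fold count and of the medians. These counts are thus a description and not a measure of the group.

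**Figure D1:**
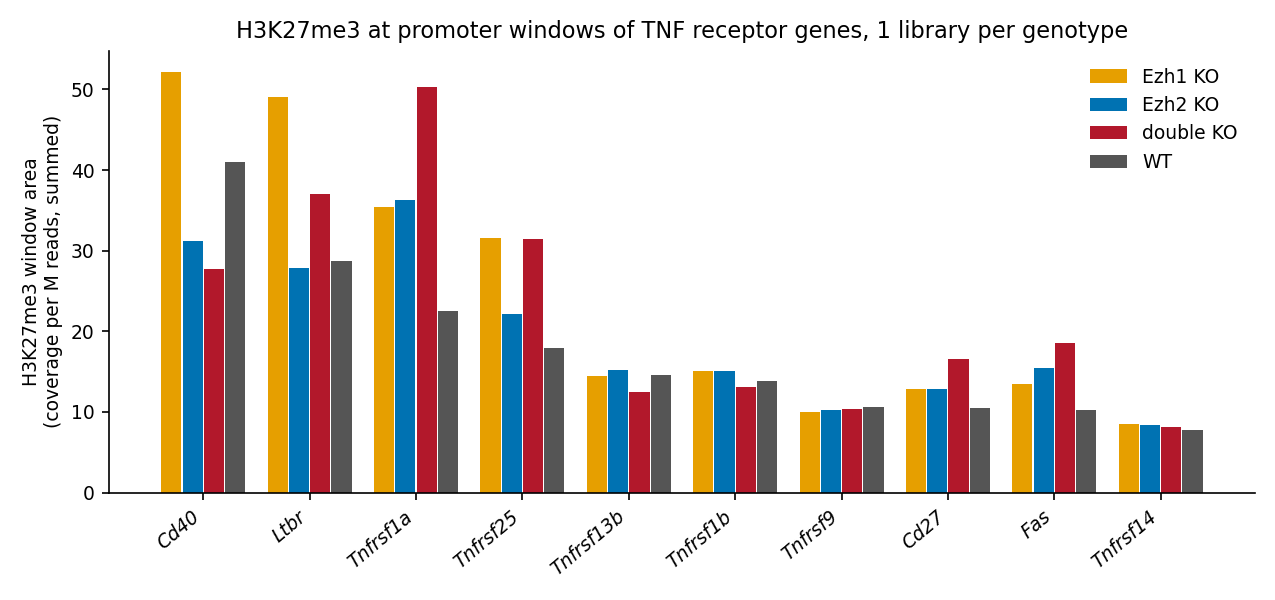
H3K27me3 window area (coverage per M reads, summed over the window) of the 10 members, 1 bar per library in the order Ezh1 KO, Ezh2 KO, double KO and WT, with members ordered by their WT area. Tnfrsf1a reaches 50.3 in the double KO against 22.5 in WT, Ltbr is highest in Ezh1 KO cells at 49.1, and Cd40 is lowest in double KO cells at 27.7.

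Tnfrsf1a encodes TNFR1, the receptor that passes TNF signals to death domain adaptors and to NF-kB. Its window (mm9, chr6:125296380-125302380, plus strand) is centred on the annotated gene start and contains the promoter shown above, whose RefSeq start lies 361 bp downstream of the centre. The area was 35.5 in Ezh1 KO cells, 36.3 in Ezh2 KO cells, 50.3 in double KO cells and 22.5 in WT. Every mutant library was higher than the WT library, and the double KO was higher than either single KO. In read equivalents, the area divided by what 1 read adds to it, these are 512 in Ezh1 KO cells, 470 in Ezh2 KO cells, 734 in double KO cells and 297 in WT. The fold over WT was 1.58 (1.36 to 1.83) in Ezh1 KO cells, 1.61 (1.39 to 1.87) in Ezh2 KO cells and 2.24 (1.95 to 2.56) in double KO cells. Ranked from the top among the windows with an area of at least 1 in the higher library, the log2 ratio to WT stood at place 180 in Ezh1 KO cells, 33 in Ezh2 KO cells and 3 in double KO cells. The double KO exceeded the Ezh1 KO by 1.42-fold (1.26 to 1.59) and the Ezh2 KO by 1.39-fold (1.23 to 1.56). The window was chosen by its double KO and WT values, and each of these folds holds at least 1 of them. The choice thus favoured the order, the ranks and the intervals, which are a description only.

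Relative to each library's own background, the Tnfrsf1a window stood at 3.61 times in Ezh1 KO cells, 3.27 times in Ezh2 KO cells, 4.84 times in double KO cells and 2.22 times in WT. It was over the line for marked windows in the double KO library alone. The highest single bin was 0.300 in Ezh1 KO cells, 0.322 in Ezh2 KO cells, 0.468 in double KO cells and 0.217 in WT, the same order as the areas. Setting the median of the windows marked in WT equal between libraries gave a log2 ratio for the double KO of 0.99, just under 2-fold, in place of 1.13.

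Tnfrsf1a RNA did not follow the window. Its mean exon peak was 0.488 in Ezh1 KO cells, 0.546 in Ezh2 KO cells, 0.485 in double KO cells and 0.544 in WT. The double KO was 0.890 times WT on the plain scale, and the Ezh2 KO 1.003 times WT. All 4 values are under the minimum of 1 that a gene had to reach in the higher library to be counted, and the WT value rests on 19.7 read heights per exon.

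Tnfrsf1a has 4 other windows within 100 kb, of which Ltbr is also a member. Tuba3a, at -63.3 kb, had areas of 25.6 in Ezh1 KO cells, 21.5 in Ezh2 KO cells, 24.4 in double KO cells and 22.9 in WT. Scnn1a, a sodium channel subunit gene at -28.0 kb, had 37.2 in Ezh1 KO cells, 29.8 in Ezh2 KO cells, 34.3 in double KO cells and 28.0 in WT. Plekhg6, at +31.4 kb, had 65.9 in Ezh1 KO cells, 41.0 in Ezh2 KO cells, 52.5 in double KO cells and 40.3 in WT. In these neighbours and in Ltbr the Ezh1 KO library was the highest and the Ezh2 KO library lay close to WT, whereas at Tnfrsf1a the double KO was the highest and the Ezh2 KO was as high as the Ezh1 KO. The log2 ratio of the double KO to WT was 0.09 at Tuba3a, 0.35 at Ltbr, 0.29 at Scnn1a and 0.37 at Plekhg6, and it was 1.13 at Tnfrsf1a. Tnfrsf1a was chosen for its rise in the double KO and the other windows were not, so this contrast is a description only.

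**Figure D2:**
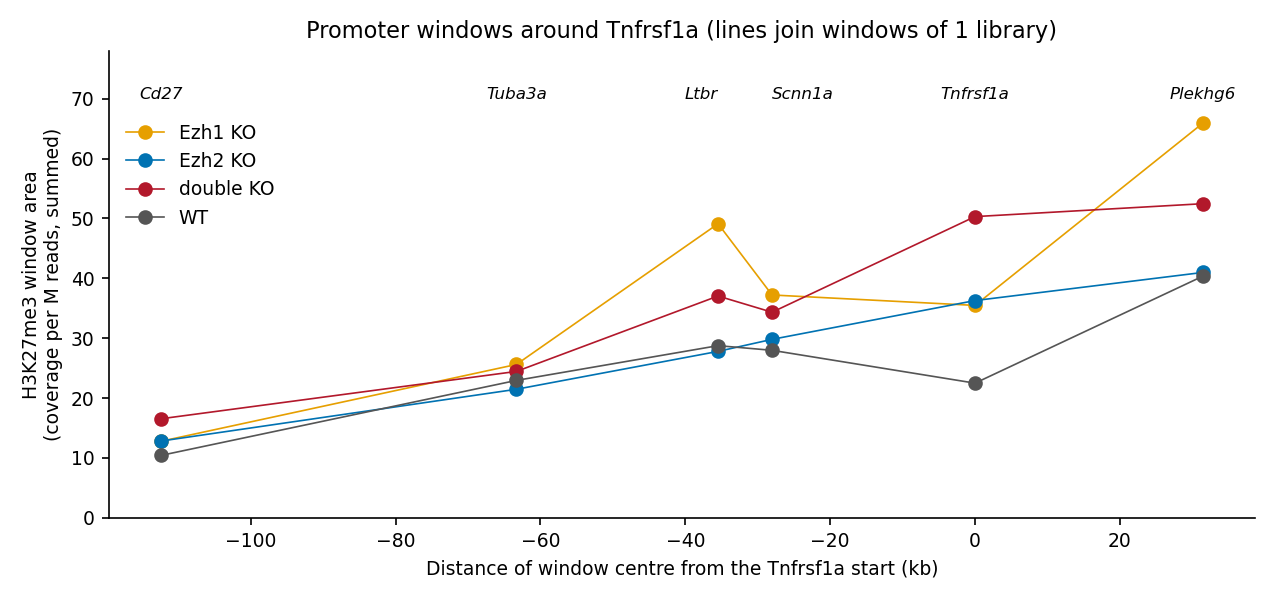
H3K27me3 window area (coverage per M reads, summed) against the distance in kb of each window's centre from the Tnfrsf1a start, for the windows within 100 kb and for Cd27, with lines joining the windows of 1 library. The double KO stands highest at Tnfrsf1a, at 50.3 against 22.5 in WT, and the Ezh1 KO stands highest at Ltbr and Plekhg6. The difference at Tnfrsf1a is the one that chose the group.

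The windows whose pattern lay nearest to that of Tnfrsf1a were ranked over the 3 log2 ratios to WT by Euclidean distance, among 9770 windows with a WT area within 2-fold of it. They were BC021614 at a distance of 0.23, Als2cl at 0.29, Tmie at 0.30, St8sia1 at 0.33 and Ccnd2, which encodes cyclin D2, at 0.35. BC021614 had areas of 24.3 in Ezh1 KO cells, 24.6 in Ezh2 KO cells, 36.4 in double KO cells and 17.0 in WT. Ccnd2 had 17.4, 16.1 and 23.6 in Ezh1 KO, Ezh2 KO and double KO cells, against 11.9 in WT. Distances of this kind share the WT library and are given as a description.

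Fas encodes the death receptor of Fas ligand, and its window (chr19:34362199-34368199, plus strand) is centred 50 bp from the annotated start. The area was 13.4 in Ezh1 KO cells, 15.5 in Ezh2 KO cells, 18.6 in double KO cells and 10.2 in WT. The order of the libraries was that of Tnfrsf1a at a lower level, with 272 read equivalents in double KO cells and 135 in WT. The fold over WT was 1.31 (1.04 to 1.64) in Ezh1 KO cells, 1.51 (1.21 to 1.89) in Ezh2 KO cells and 1.82 (1.48 to 2.25) in double KO cells. By the highest bin alone the log2 ratio of the double KO was 0.33, in place of 0.80 by area. The window stayed below the line for marked windows in every library, at 1.79 times background in double KO cells. Fas RNA was 1.52 in Ezh1 KO cells, 1.85 in Ezh2 KO cells, 1.62 in double KO cells and 1.61 in WT, so the double KO and WT were alike to 1.01-fold.

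Tnfrsf25 encodes DR3, a death domain receptor that costimulates T cells through its ligand TL1A. Its window (chr4:151487043-151493043, plus strand) is centred on the annotated start, holds both RefSeq starts and also covers 2467 bp of the gene Plekhg5. The area was 31.5 in Ezh1 KO cells, 22.1 in Ezh2 KO cells, 31.5 in double KO cells and 18.0 in WT. By area the Ezh1 KO and the double KO were alike and both stood over the Ezh2 KO and WT. By the highest bin the Ezh2 KO lay near the other mutants, with 0.337 in Ezh1 KO cells, 0.313 in Ezh2 KO cells, 0.363 in double KO cells and 0.199 in WT. The fold over WT was 1.75 (1.49 to 2.06) in Ezh1 KO cells, 1.23 (1.03 to 1.47) in Ezh2 KO cells and 1.75 (1.49 to 2.06) in double KO cells. Tnfrsf25 RNA was 0.955 in Ezh1 KO cells, 0.804 in Ezh2 KO cells, 0.851 in double KO cells and 0.967 in WT, with every mutant at or below WT. Of all genes over the minimum, 22.7% were higher than WT in Ezh1 KO cells, 43.6% in Ezh2 KO cells and 32.9% in double KO cells.

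Ltbr encodes the lymphotoxin beta receptor, which lymphoid tissue stroma and myeloid cells express and T cells generally lack. Its window (chr6:125260903-125266903, minus strand) is centred on the annotated start and contains the CpG-rich promoter shown above. The area was 49.1 in Ezh1 KO cells, 27.8 in Ezh2 KO cells, 37.0 in double KO cells and 28.8 in WT. The fold over WT was 1.71 (1.51 to 1.94) in Ezh1 KO cells, 0.967 (0.835 to 1.12) in Ezh2 KO cells and 1.29 (1.13 to 1.48) in double KO cells. Ltbr was over the line for marked windows in the Ezh1 KO alone. Its RNA was 0.00142 in Ezh1 KO cells, 0.0135 in Ezh2 KO cells, 0.0106 in double KO cells and 0.0193 in WT, at most 1 read height per exon in each library, and no fold was taken from it.

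The Ezh1 KO ChIP library as a whole had stronger contrast than the others. The marked windows here are those over the line in WT, taken as the same set in every library. Their median area was 64.2 in Ezh1 KO cells, 47.5 in Ezh2 KO cells, 56.9 in double KO cells and 51.5 in WT. That is 6.54, 4.29 and 5.47 times background in the mutants in that order and 5.08 times in WT. With the marked windows set equal, the log2 ratio of the Ezh1 KO to WT was 0.44 at Ltbr in place of 0.75, 0.47 at Tnfrsf25 in place of 0.78, 0.33 at Tnfrsf1a in place of 0.63 and 0.03 at Cd40 in place of 0.34. That setting moved the median of all windows by -0.29 in Ezh1 KO cells, -0.13 in double KO cells and 0.11 in Ezh2 KO cells. No input or spike-in was used here, so a difference in the mark and a difference in the efficiency of the precipitation cannot be told apart.

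Cd27, a costimulatory receptor that naive T cells carry, has a window (chr6:125184028-125190028, minus strand) that lies within the gene Vamp1 on the opposite strand and overlaps the window of Tapbpl by 850 bp. The area was 12.8 in Ezh1 KO cells, 12.8 in Ezh2 KO cells, 16.5 in double KO cells and 10.4 in WT. The double KO was highest, at 1.59-fold (1.28 to 1.97) over WT, and the intervals of both single KOs, at 1.23-fold each, reached below 1. Cd27 RNA was 16.2 in Ezh1 KO cells, 15.4 in Ezh2 KO cells and 13.3 in double KO cells, against 14.7 in WT. The log2 ratio of the double KO to WT, with 0.1 added to each height, was -0.14 by the mean over exons and 0.08 by the median over exons.

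Cd40 was the member that stood lowest in the double KO relative to WT. Its window (chr2:164878127-164884127, plus strand) is centred on the annotated start. The area was 52.2 in Ezh1 KO cells, 31.3 in Ezh2 KO cells, 27.7 in double KO cells and 41.0 in WT. The Ezh1 KO was above WT and both CD4-cre libraries were below it, so the window was marked in Ezh1 KO cells and in WT and not in the others. The fold over WT was 1.27 (1.14 to 1.43) in Ezh1 KO cells, 0.763 (0.670 to 0.870) in Ezh2 KO cells and 0.675 (0.593 to 0.770) in double KO cells. By the highest bin the Ezh2 KO lay above WT, at a log2 ratio of 0.13. The double KO was 0.530 times (0.468 to 0.599) the Ezh1 KO.

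Cd40 RNA was 0.157 in Ezh1 KO cells, 0.259 in Ezh2 KO cells, 0.415 in double KO cells and 0.127 in WT. The double KO was 3.27 times WT and the Ezh2 KO 2.04 times WT, but every value is under the minimum of 1, and the WT value rests on 4.59 read heights per exon. Markers of B cells, which express Cd40, were also higher in the double KO and Ezh2 KO RNA libraries than in WT. The summed height of 12 B cell markers was 9.90 in Ezh1 KO cells, 14.3 in Ezh2 KO cells, 25.1 in double KO cells and 7.71 in WT, and none of the 12 was at 0 in any library. They were higher than in WT for 9 of 12 in Ezh1 KO cells, 12 of 12 in Ezh2 KO cells and 12 of 12 in double KO cells. Of all genes over the minimum, which not all markers reached, 22.7%, 43.6% and 32.9% were higher in that order. In the double KO 8 of the 12 were called at least 2-fold higher, beside 1.24% of all genes called in either direction. Of these 8, H2-Ab1 and Cd74 alone reached the minimum in WT as well, so the others were counted only through their double KO value. The 8 include Cd79a, Cd79b, Cd22, Fcer2a, H2-Aa, H2-Ab1 and Cd74. Summed heights of the 8 measured myeloid and dendritic markers were 1.41 in Ezh1 KO cells, 1.52 in Ezh2 KO cells, 2.11 in double KO cells and 1.17 in WT. In the double KO 5 of the 8 were higher than in WT. Lyz2 had 1.19 in double KO cells and 0.275 in WT, and Fcgr3 had 0.139 and 0.270. The sums of 9 CD8 T and NK cell markers were 4.28 in Ezh1 KO cells, 8.86 in Ezh2 KO cells, 7.32 in double KO cells and 4.25 in WT. Higher than in WT were 7 of the 9 in Ezh2 KO cells and 6 in double KO cells. Gzma had 2.90 in Ezh2 KO cells, 1.13 in double KO cells and 0.226 in WT, while Prf1 had 1.07, 1.06 and 1.43. Sums of 4 plasma cell markers were 2.97, 4.84 and 3.80 in Ezh1 KO, Ezh2 KO and double KO cells, against 3.51 in WT. In Ezh2 KO cells 1 of the 4 was higher than in WT, Igj, at 1.79 against 0.260. Sums of 6 activated and regulatory CD4 T cell markers were 7.93, 9.08 and 6.68 in the same order, against 7.64 in WT. Higher than in WT were 4 of the 6 in Ezh2 KO cells and 2 in double KO cells. In the ChIP libraries the windows of the B cell markers were higher than in WT for 8 of 12 in Ezh1 KO cells, 3 of 12 in Ezh2 KO cells and 2 of 12 in double KO cells. Of all windows, 64.2%, 48.5% and 59.6% were higher in that order. The summed areas of the B cell marker windows were 253.0, 193.2 and 175.9 in Ezh1 KO, Ezh2 KO and double KO cells, against 227.9 in WT. In bulk samples, more cells of a type and more RNA per cell cannot be told apart, and the part that B cells have in the Cd40 values was not tested.

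**Figure D3:**
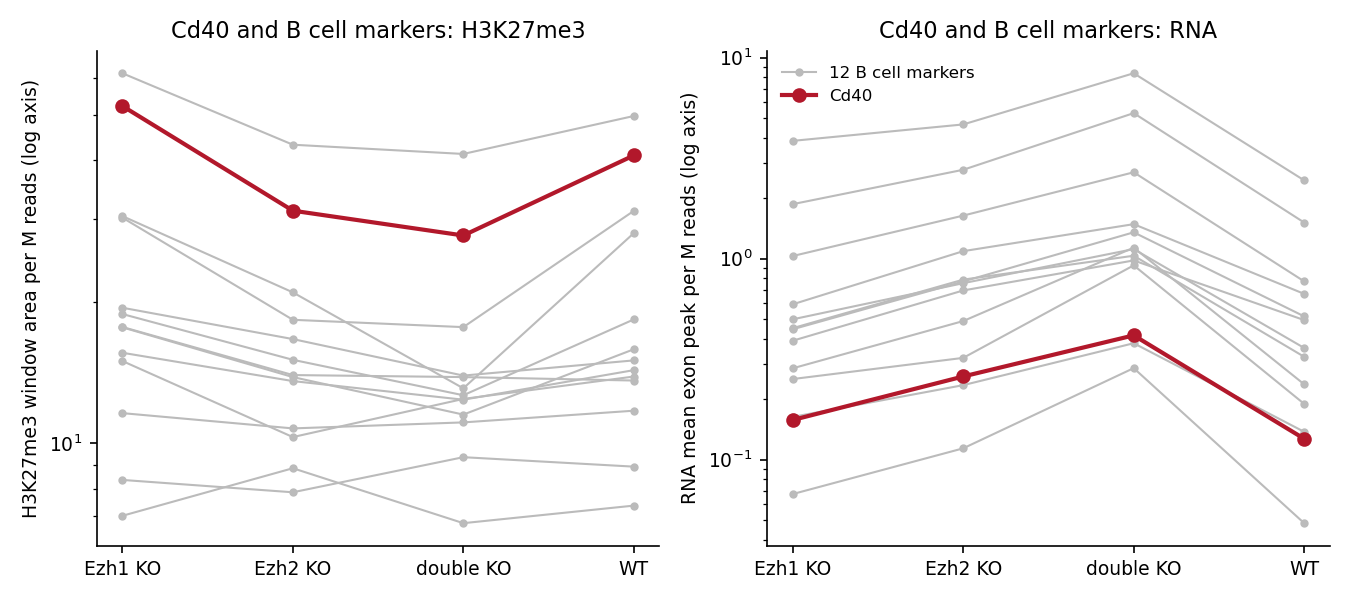
Cd40 (red) and 12 B cell marker genes (grey) in the 4 libraries of each assay, H3K27me3 window area per M reads on the left and RNA mean exon peak per M reads on the right, both on log axes. Cd40 RNA and every marker are higher in double KO cells than in WT, and the Cd40 window is lower in double KO cells, at 27.7, than in WT, at 41.0.

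The other 4 members differed little in H3K27me3, and each of their intervals spans 1 in every comparison with WT. Tnfrsf1b, the TNFR2 gene (chr4:144833773-144839773, minus strand), had areas of 15.1 in Ezh1 KO cells, 15.03 in Ezh2 KO cells, 13.1 in double KO cells and 13.9 in WT. Tnfrsf13b, which encodes TACI, a receptor of B cells for BAFF and APRIL (chr11:60937257-60943257, plus strand), had 14.5 in Ezh1 KO cells, 15.2 in Ezh2 KO cells, 12.5 in double KO cells and 14.6 in WT. Tnfrsf14, the HVEM gene (chr4:154299672-154305672, minus strand), whose promoter with its 2 CpGs is shown above, had 8.55 in Ezh1 KO cells, 8.39 in Ezh2 KO cells, 8.09 in double KO cells and 7.81 in WT. Their folds in double KO cells were 0.945 (0.766 to 1.16), 0.856 (0.696 to 1.05) and 1.04 (0.788 to 1.36).

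Tnfrsf9 encodes 4-1BB, a costimulatory receptor induced on activated T cells. Its window (chr4:150285671-150291671, plus strand) had areas of 9.99 in Ezh1 KO cells, 10.3 in Ezh2 KO cells, 10.3 in double KO cells and 10.7 in WT, at background in each. The window shares 5875 bp with that of Park7, which starts there on the opposite strand. Both RefSeq starts of Tnfrsf9 lie outside it, 5.59 kb and 13.4 kb downstream of its centre, so these areas do not measure them. The RefSeq starts of the other 8 matched members lie within their windows.

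**Figure D4:**
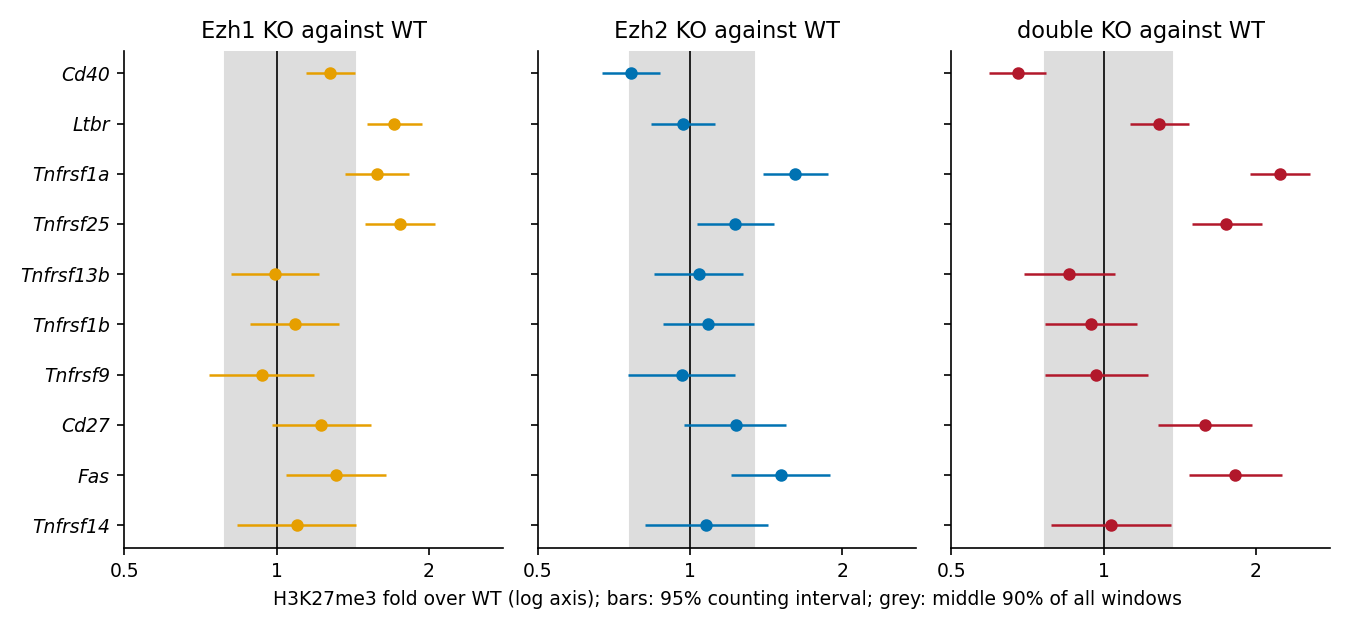
Fold of H3K27me3 window area over WT (log axis) for each member in Ezh1 KO, Ezh2 KO and double KO cells, with bars for the 95% counting interval and grey for the middle 90% of all windows. In the double KO, Tnfrsf1a at 2.24, Fas at 1.82, Tnfrsf25 at 1.75 and Cd27 at 1.59 lie above the grey band and Cd40 at 0.675 lies below it. The value of Tnfrsf1a is the one that chose the group.

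In RNA, 4 of the 10 members reached the minimum of 1 in a library, and no member was called 2-fold different in any comparison. The share of all genes called was 0.442% in Ezh1 KO cells, 1.5% in Ezh2 KO cells and 1.24% in double KO cells, each against WT. Most genes over the minimum were lower than WT in each mutant, with 22.7%, 43.6% and 32.9% higher in the same order. Tnfrsf1b RNA was 1.79 in Ezh1 KO cells, 1.69 in Ezh2 KO cells, 1.75 in double KO cells and 2.09 in WT, lower in every mutant. The double KO was 0.840 times WT, within the middle 90% of all genes, which ran from 0.699 to 1.33. Tnfrsf14 RNA was 2.56 in Ezh1 KO cells, 2.85 in Ezh2 KO cells, 2.26 in double KO cells and 2.63 in WT. Among members under the minimum, Tnfrsf9 had 0.505 in Ezh1 KO cells, 0.579 in Ezh2 KO cells, 0.566 in double KO cells and 0.490 in WT, and Tnfrsf13b had 0.590, 0.481 and 0.631 in Ezh1 KO, Ezh2 KO and double KO cells, against 0.536 in WT. For the 4 members over the minimum, Cd27, Tnfrsf14, Tnfrsf1b and Fas, the log2 ratios of the double KO to WT lay between -0.24 and 0.01. Peaks of coverage are not counts, so no interval was computed for RNA.

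**Figure D5:**
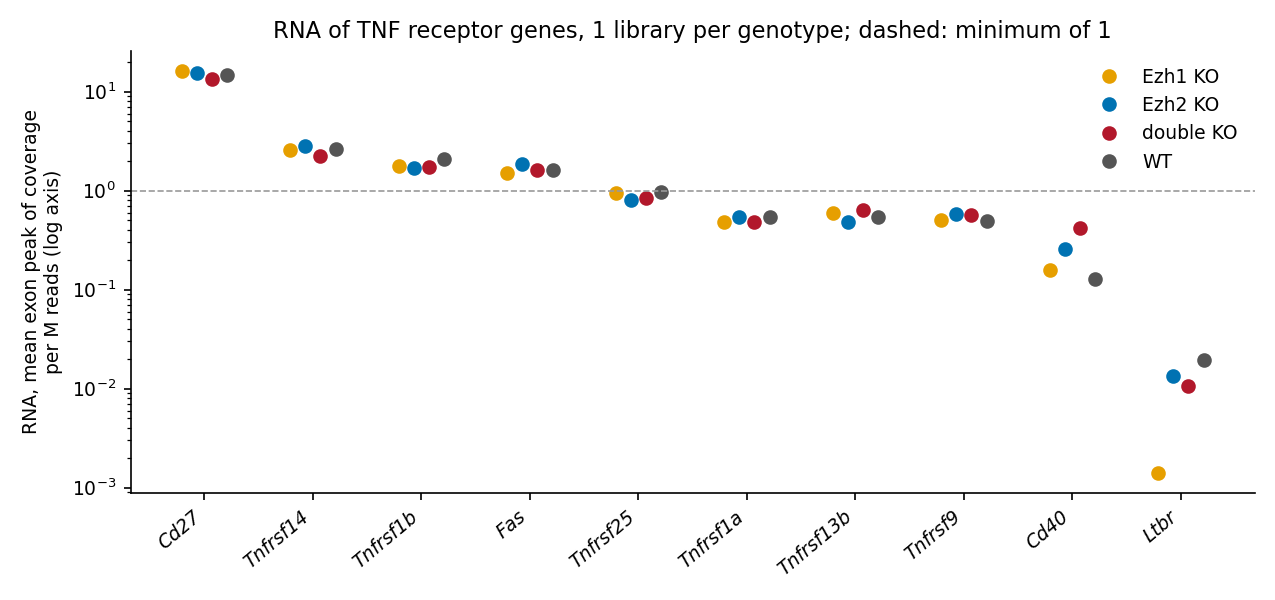
RNA mean exon peak (coverage per M reads, log axis) of the 10 members, 1 point per library in the order Ezh1 KO, Ezh2 KO, double KO and WT, with the minimum of 1 dashed. Cd27, Tnfrsf14, Tnfrsf1b and Fas lie above the minimum, Cd40 is at 0.415 in double KO cells and 0.127 in WT, and Ltbr lies under 0.02 in every library.

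Against the single KOs, 4 members had more H3K27me3 and 6 less in double KO cells than in Ezh1 KO cells, and 6 had more and 4 less than in Ezh2 KO cells. Of all windows, 42.0% had more than in Ezh1 KO cells and 58.1% more than in Ezh2 KO cells. None differed by 2-fold in either comparison, beside 0.223% of all windows against the Ezh1 KO and 0.0334% against the Ezh2 KO. Cd40 came nearest, at 27.7 in the double KO against 52.2 in Ezh1 KO cells. Ltbr had 37.0 in double KO cells and 49.1 in Ezh1 KO cells, a fold of 0.754 (0.674 to 0.845), and it was 1.33 times (1.16 to 1.53) the Ezh2 KO. Tnfrsf25 had 31.5 in double KO cells and 22.1 in Ezh2 KO cells, a fold of 1.42 (1.23 to 1.66), while its fold to the Ezh1 KO was 0.999 (0.875 to 1.14). Fas in double KO cells was 1.39 times (1.15 to 1.68) the Ezh1 KO and 1.203 times (1.002 to 1.46) the Ezh2 KO. In RNA no member was called in these comparisons either, beside 0.883% of all genes against the Ezh1 KO and 0.786% against the Ezh2 KO.

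The wider pathway was read from 4 lists, and none of their genes that reached the minimum was 2-fold different from WT in any mutant in either assay. Below the RNA minimum, Tnfsf4, the OX40 ligand gene, had 0.130 in Ezh1 KO cells, 0.264 in Ezh2 KO cells, 0.590 in double KO cells and 0.133 in WT, and it is named after its values were seen. Of 18 other receptors of the family, 15 windows were higher and 3 lower in Ezh1 KO cells, 10 higher and 8 lower in Ezh2 KO cells, and 10 higher and 8 lower in double KO cells. The share of all windows that was higher than WT was 64.2%, 48.5% and 59.6% in that order. Tnfrsf13c, the BAFF receptor gene of B cells, lay furthest from WT by H3K27me3 in double KO cells, with areas of 21.8 in Ezh1 KO cells, 13.97 in Ezh2 KO cells, 11.6 in double KO cells and 17.9 in WT. Tnfrsf18, the GITR gene, had 9.35 in Ezh1 KO cells, 11.9 in Ezh2 KO cells, 12.6 in double KO cells and 8.73 in WT, and Tnfrsf22, a decoy receptor gene, had 14.2, 14.99 and 19.2 in Ezh1 KO, Ezh2 KO and double KO cells, against 13.7 in WT. In RNA 3 of these receptors reached the minimum in a library, Tnfrsf26 in WT alone. Tnfrsf4, the OX40 gene, had 1.28 in Ezh1 KO cells, 1.02 in Ezh2 KO cells, 0.959 in double KO cells and 1.43 in WT. Tnfrsf18 had 5.53 in Ezh1 KO cells, 5.04 in Ezh2 KO cells, 4.78 in double KO cells and 5.68 in WT, and Tnfrsf26 had 0.910, 0.861 and 0.734 in Ezh1 KO, Ezh2 KO and double KO cells, against 1.18 in WT.

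Of 18 ligands, 13 windows were higher and 5 lower in Ezh1 KO cells, 12 higher and 6 lower in Ezh2 KO cells, and 14 higher and 4 lower in double KO cells. The shares of all windows are those given beside the receptors. Tnfsf8, the CD30 ligand gene, had areas of 23.0 in Ezh1 KO cells, 23.1 in Ezh2 KO cells, 23.6 in double KO cells and 15.7 in WT, higher in every mutant. Tnfsf13, the APRIL gene, had 30.1 in Ezh1 KO cells, 24.1 in Ezh2 KO cells, 31.6 in double KO cells and 21.2 in WT. Tnfsf18, the GITR ligand gene, had 21.1 in Ezh1 KO cells, 17.6 in Ezh2 KO cells, 14.6 in double KO cells and 22.2 in WT, lower in every mutant. In RNA, Fasl, the ligand of the member Fas, had 1.01 in Ezh1 KO cells, 0.611 in Ezh2 KO cells, 0.625 in double KO cells and 1.09 in WT, low in both CD4-cre libraries. Cd40lg, the ligand of the member Cd40, had 5.37 in Ezh1 KO cells, 4.59 in Ezh2 KO cells, 4.54 in double KO cells and 5.87 in WT. Tnfsf10, the TRAIL gene, had 0.966 in Ezh1 KO cells, 1.12 in Ezh2 KO cells, 1.22 in double KO cells and 0.871 in WT.

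Downstream of the receptors, 15 TRAF and adaptor genes and 17 NF-kB pathway genes were read. Of the adaptor windows, 3 were higher and 12 lower in Ezh1 KO cells, 11 higher and 4 lower in Ezh2 KO cells, and 10 higher and 5 lower in double KO cells. Of the NF-kB windows, 8 were higher and 9 lower in Ezh1 KO cells, 13 higher and 4 lower in Ezh2 KO cells, and 12 higher and 5 lower in double KO cells. Of all windows, 64.2%, 48.5% and 59.6% were higher in these mutants in that order. The background median itself was 9.82 in Ezh1 KO cells, 11.1 in Ezh2 KO cells, 10.4 in double KO cells and 10.1 in WT. What part that background has in the counts of both lists was not tested. The median log2 ratio of the double KO to WT was 0.10 for the adaptors and 0.12 for the NF-kB genes, beside 0.05 for all windows. The adaptor windows furthest from WT in double KO cells were those of Traf4, Casp8 and Ripk1, at log2 ratios of 0.30, 0.22 and -0.21, and the NF-kB windows were those of Rela, Nfkbia and Bcl3, at 0.44, 0.35 and 0.34. In RNA, where most genes over the minimum were lower than WT in each mutant, Traf5 was lower in every mutant. Traf5, an adaptor of several TNF receptors, had 1.19 in Ezh1 KO cells, 1.10 in Ezh2 KO cells, 0.918 in double KO cells and 1.35 in WT. Traf1 and Birc3 had log2 ratios of 0.15 and -0.13 in double KO cells. Tnfaip3, which encodes the NF-kB inhibitor A20, had 1.80 in Ezh1 KO cells, 1.90 in Ezh2 KO cells, 2.34 in double KO cells and 1.74 in WT, while Ikbkg and Cyld were at log2 ratios of -0.19 and -0.14 in double KO cells.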

How the data were processed

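The authors deposited coverage signal tables, 1 per library. Per the labels' protocols, reads were aligned to mm9 with Bowtie 0.12.7, and reads with at most 2 errors and 1 location were kept. The tools bcl2fastq, Cufflinks and Cuffdiff stand in the submitters' processing notes with no role. How the columns were computed, and whether input was subtracted, is not given in the sources used here. From the values, the deposited window signal is the sum of 25 bp bins of coverage per M reads, with reads extended to 151 bp. The number of exons in the RNA files was used as deposited.

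Log2 ratios had a pseudocount of 1 (ChIP) or 0.1 (RNA), and a difference was called at 2-fold with at least 1 in the higher library. No RNA fold was taken at or below 3 read heights. The calls were tested on simulated data, read counts drawn from the WT values with known changes put in and no other variation between libraries. Such a test cannot tell whether a call between single libraries would repeat. Computation used Python 3.11.15, pandas 2.3.3 and SciPy 1.17.1. The members and lists were chosen with earlier results of these data known. Named are all members, Ezh1 and Ezh2, per list and assay the 3 genes furthest from WT in the double KO, neighbours of a called member, and the 5 windows nearest to it in pattern; overlapping genes and single marker genes were named after their values were seen.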

Additional observations from a re-analysis of the deposited data

How the results depend on the processing

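No paired analysis was possible because each genotype has 1 library per assay, and no library could be left out for the same reason. The count of members at least 2-fold different in H3K27me3, which was 1 in the double KO against WT and 0 in the other 4 comparisons, kept these values with the highest bin, median of ratios, TMM, background windows set equal, a pseudocount of 0.1, no minimum and a minimum of 5. In the double KO against WT it was 0 with the marked windows set equal, where Tnfrsf1a had a log2 ratio of 0.99, 0 with a pseudocount of 10, where it had 0.89, and 0 at 4-fold. At 1.5-fold the counts were 3 in Ezh1 KO cells, 1 in Ezh2 KO cells and 4 in the double KO against WT. Each of these includes Tnfrsf1a, whose double KO and WT values chose the group. There was 1, Cd40, in the double KO against the Ezh1 KO, beside 2.55% of all windows. In RNA, with no minimum, 1 member, Cd40, was over 2-fold in the double KO against WT, beside 0.724% of all genes. Against the Ezh1 KO it was also 1, Cd40, beside 0.524% of all genes. No other setting changed the RNA counts. Of the alternatives for single members, 558 stayed within the counting interval (ChIP) or on the same side of 0 (RNA), 40 did not and 2 lost the call, with none reversed while called. The cause of these shifts was not tested. In RNA, TMM moved the median of all genes by 0.13 in Ezh1 KO cells. RNA depth limits Cd40 and Ltbr, whose WT values rest on 4.59 and 0.696 read heights per exon.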
